A study of Homo sapiens with 12 samples.

Results

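The comparison described here sets untreated MDA-MB-231 cells that had been treated to resistance (TTR) against untreated parental MDA-MB-231 cells, gene by gene. MDA-MB-231 is an established human breast cancer cell line with mesenchymal features that lacks the oestrogen and progesterone receptors. The series holds 12 microarrays in 4 groups of 3: parental and TTR cells, each untreated or exposed to the death ligand TRAIL at 100 ng per ml for 2 h. The 6 untreated arrays were chosen from the titles, and each of the 18417 genes that at least 1 array feature names alone is represented by its feature with the highest mean level. All 4 groups share the cell line and the total RNA preparation. How the TTR cells were selected, at what dose, for how long, and whether they are 1 clone or a pool is not stated by the labels. The array descriptions also carry an unexplained tag that reads minus on all parental arrays and plus on all TTR arrays, and its meaning and the line cannot be told apart. The labels do not say whether replicates are separate cultures, so every p-value measures only the spread between these arrays, which may be technical.

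TRAIL is a trimeric ligand of the tumour necrosis factor family. It binds the death receptors TNFRSF10A and TNFRSF10B, whose intracellular death domains recruit the adaptor FADD and the initiator caspases CASP8 and CASP10, and the inhibitor CFLAR competes with them in that complex. The decoy receptors TNFRSF10C and TNFRSF10D and the soluble receptor TNFRSF11B bind the ligand without passing on a death signal. In many cell types caspase activation then runs through the BCL2 family and mitochondria, where IAP proteins hold the caspases in check, and the same receptors can also drive NF-kB and MAP kinase signalling. The series title names SLC26A2, a sulfate transporter, as a mediator of TRAIL resistance.

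The values are log2 expression levels after robust multi-array averaging, with no call of whether a gene was detected, so a low level can be background. The 6 untreated arrays had medians of 4.29 to 4.31 in parental and 4.24 to 4.30 in TTR cells. They correlated at 0.991 to 0.995 within a line and at 0.989 to 0.992 between the lines across genes. Of 12 markers of MDA-MB-231 cells 1 was lower in TTR cells and 0 higher, and their mean level was 9.53 to 9.76 in the parental arrays and 9.51 to 9.88 in the TTR arrays. The 14 blood cell markers had a mean of 4.17 to 4.24 in the parental and 4.08 to 4.09 in the TTR arrays, lower in every TTR array. Of these markers 13 lay below 0 with a median of −0.13, and 0 passed. The 14 fibroblast and endothelial markers lay at 3.62 to 3.67 and 3.54 to 3.62, with 1 higher and 1 lower (7.14% each). Luminal breast markers lay at 6.00 to 6.02 and 5.78 to 6.01, with 2 of 14 (14.3%) lower. Over all genes 3.64% were higher and 3.47% lower.

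Without TRAIL, 1310 genes (7.11% of those tested) differed between TTR and parental cells by limma at an adjusted p under 0.05. Of these, 671 (3.64%) were higher and 639 (3.47%) lower in TTR cells. Most differences were small: the median absolute log2 difference of the called genes was 0.55, and only 67 genes (0.364%) were at least 2-fold higher and 42 (0.228%) at least 2-fold lower. For 1298 of the called genes (7.05% of those tested) the 3 TTR values lay wholly above or below the 3 parental values. Where a called gene below is said to separate the lines, this therefore adds little to its call. Called or not, 4525 genes (24.6%) showed such a separation, and 3475 genes had an unadjusted p under 0.05. The median difference over all genes was −0.013. The number of called genes rested on single arrays more than its balance did. It was 807 without parental array 1 (404 higher, 403 lower), 829 without parental array 2 (448 and 381) and 782 without TTR array 2 (405 and 377), and the higher genes numbered 446 without parental array 3. For single genes below, lost calls are given for arrays left out. Calls lost with other processing are listed near the end.

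**Figure D1:**
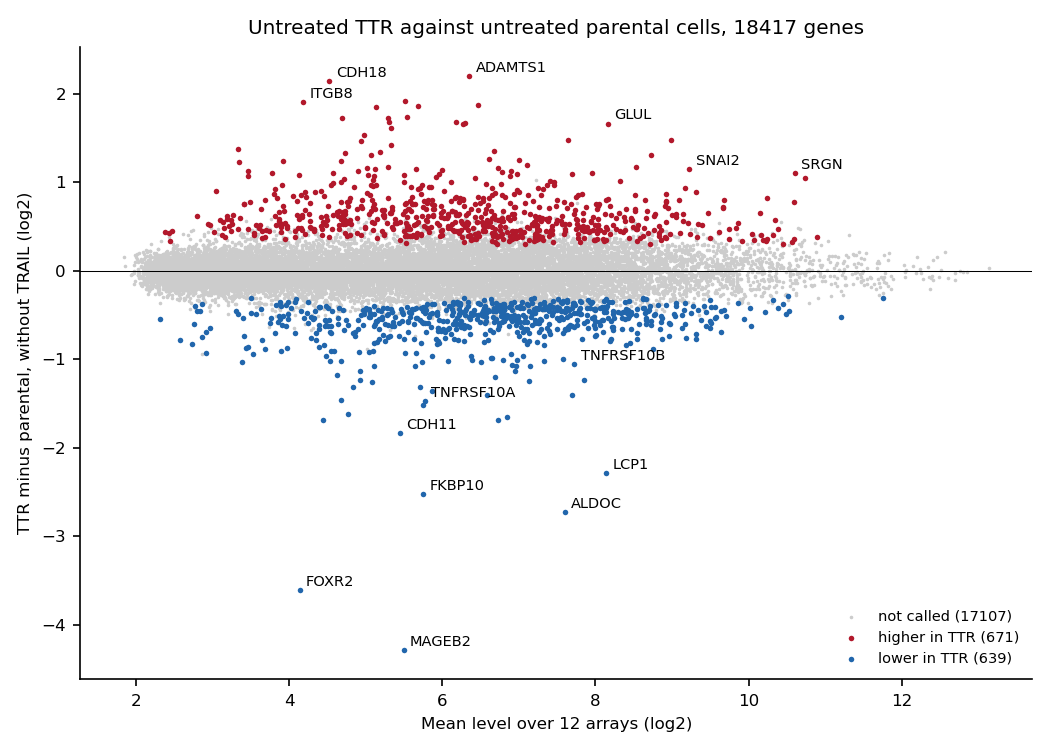
Log2 difference, TTR minus parental cells without TRAIL, against the mean log2 level over the 12 arrays, 1 point per gene; red points are the 671 genes called higher, blue points the 639 called lower and grey points the rest. The largest falls, MAGEB2 at −4.29 and FOXR2 at −3.61, lie farther from 0 than the largest rise, ADAMTS1 at 2.20.

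The largest differences were falls. The 15 largest falls and rises were picked among called genes whose 3 TTR and 3 parental values did not overlap. Their separation was thus a condition of the choice. MAGEB2, an X-linked antigen normally made in testis, stood at 7.93, 8.06 and 8.17 in the parental arrays and at 3.70, 3.92 and 3.66 in the TTR arrays. FOXR2, a forkhead transcription factor also encoded on the X chromosome, stood at 6.17, 6.34 and 6.21 in the parental arrays and at 2.80, 2.62 and 2.47 in the TTR arrays. For both genes every TTR array lay more than 3 log2 units below every parental array, and the TTR values were under 4, with no detection call to set them against background. MAGEB2 was 19.6-fold lower in TTR cells (−4.29 ± 0.11, log2 difference ± standard error, limma adjusted p = 8.88e-13) and FOXR2 12.2-fold lower (−3.61 ± 0.12, adjusted p = 1.37e-11). ALDOC, an aldolase of glycolysis, stood at 8.98, 9.03 and 9.10 in the parental arrays and at 6.14, 6.24 and 6.55 in the TTR arrays. FKBP10, a prolyl isomerase of the endoplasmic reticulum that assists collagen folding, stood at 7.17, 7.04 and 6.91 in the parental arrays and at 4.24, 4.52 and 4.77 in the TTR arrays. Again no TTR array reached the lowest parental array. ALDOC fell 6.62-fold (−2.73 ± 0.12, adjusted p = 6.29e-10) and FKBP10 5.77-fold (−2.53 ± 0.14, adjusted p = 1.5e-08).

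LCP1, the actin-bundling protein L-plastin, stood at 10.00, 10.15 and 10.06 in the parental arrays and at 7.83, 7.73 and 7.79 in the TTR arrays and fell 4.88-fold (−2.29 ± 0.13, limma adjusted p = 2.79e-08). CDH11, a cadherin of mesenchymal cells, stood at 6.61, 6.70 and 6.77 in the parental arrays and at 4.85, 4.68 and 5.03 in the TTR arrays (−1.83 ± 0.11). TENM1, a teneurin involved in cell contact, was lower by 1.69 on the log2 scale, FABP6, an intestinal bile acid carrier, by 1.68, and the embryonic globin gene HBE1 by 1.65. Further down were PARD6B (−1.40 ± 0.14), a polarity protein, and ST6GAL1 (−1.40 ± 0.16), which caps surface glycans with sialic acid. That 3 TTR arrays lay below 3 parental arrays in all of these was a condition of the choice. Some members of the list are less certain. KLRC4-KLRK1 (−1.62 ± 0.26) and KLRC3 (−1.46 ± 0.38), natural killer cell receptor genes, HBE1 and MAGEB2 have close relatives in the genome whose transcripts could share probes. The KLRC3 call was lost without parental array 1, 2 or 3 or TTR array 1 or 2 (adjusted p 0.0506 to 0.154). For GSAP, which activates gamma-secretase, the feature used gave −1.52 and a second feature of the gene 0.15, so its fall rests on 1 feature.

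The largest rise was that of ADAMTS1, which stood at 4.36, 4.26 and 4.03 in the parental arrays and at 6.66, 6.25 and 6.36 in the TTR arrays. It is a secreted metalloprotease that cleaves proteoglycans. CDH18, a cadherin, stood at 3.33, 3.49 and 3.60 in the parental arrays and at 5.81, 5.70 and 5.35 in the TTR arrays. NOG, the secreted BMP antagonist noggin, stood at 4.73, 4.41 and 4.34 in the parental arrays and at 6.61, 6.37 and 6.26 in the TTR arrays. For these 3 genes every TTR array lay more than 1 log2 unit above every parental array. ADAMTS1 was 4.6-fold higher (2.20 ± 0.15, limma adjusted p = 3.74e-07), CDH18 4.42-fold (2.14 ± 0.13, adjusted p = 3.72e-08) and NOG 3.79-fold (1.92 ± 0.17, adjusted p = 4.41e-06). ITGB8, an integrin subunit that activates latent TGF-beta, stood at 3.37, 3.24 and 3.08 in the parental arrays and at 5.78, 4.63 and 4.99 in the TTR arrays, so the TTR arrays varied more among themselves than the parental ones (1.90 ± 0.22). NNMT, which methylates nicotinamide, stood at 5.43, 5.84 and 6.04 in the parental arrays and at 7.28, 7.57 and 8.10 in the TTR arrays (1.88 ± 0.23).

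The other genes among the 15 largest rises were CDYL2 (1.86 ± 0.15), a chromodomain protein, CPED1 (1.85 ± 0.17), the neuronal adhesion molecule NEGR1 (1.73 ± 0.14), the scavenger receptor family member DMBT1 (1.73 ± 0.13), the collagen chain COL8A1 (1.72 ± 0.17), the matrix-associated CCDC80 (1.68 ± 0.18), the adhesion molecule CADM1 (1.68 ± 0.15), the germ cell cyclin CCNA1 (1.67 ± 0.13), glutamine synthetase GLUL (1.66 ± 0.12) and LIMCH1 (1.66 ± 0.12), which activates non-muscle myosin. GLUL stood at 7.23, 7.17 and 7.41 in the parental arrays and at 8.83, 8.94 and 9.01 in the TTR arrays. A second feature of GLUL gave 1.20. The 15 were picked among called genes without overlap between the groups, so their separation is no separate result. Their limma adjusted p ranged from 3.72e-08 (CDH18) to 9.42e-05 (NNMT).

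**Figure D2:**
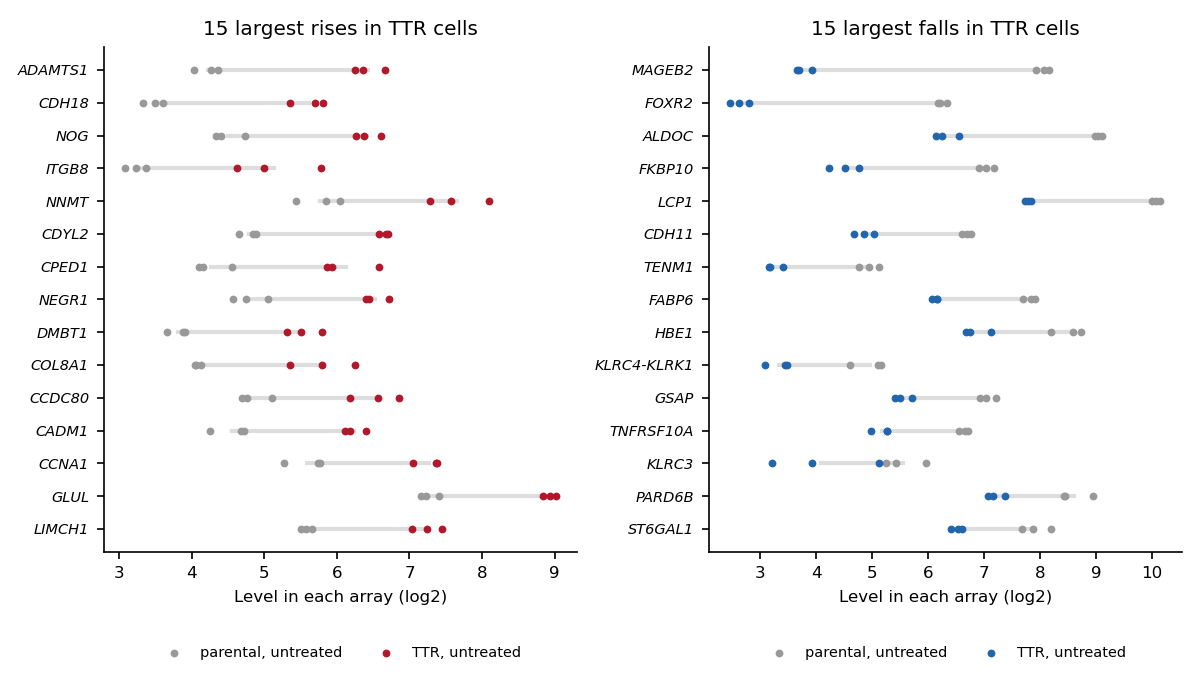
Log2 level in each of the 6 untreated arrays for the 15 largest rises (left) and the 15 largest falls (right); grey points are parental arrays, coloured points TTR arrays, and pale bars join the group means. The genes were picked for parental and TTR points that do not overlap, and the gap is narrowest in KLRC3.

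Within the TRAIL receptor complex itself, the death receptors were lower and the intracellular components did not pass. TNFRSF10A, the first death receptor, stood at 6.67, 6.55 and 6.70 in the parental arrays and at 5.27, 4.98 and 5.26 in the TTR arrays. TNFRSF10B, the second, stood at 8.40, 8.56 and 8.33 in the parental arrays and at 7.56, 7.40 and 7.18 in the TTR arrays. Both receptors were lower in every TTR array, TNFRSF10A 2.77-fold (−1.47 ± 0.11, limma adjusted p = 1.06e-06) and TNFRSF10B 2.07-fold (−1.05 ± 0.13, adjusted p = 7.95e-05), and both calls held in each of the 16 alternatives tried. In RNA from a whole culture, fewer cells with a transcript and less transcript per cell cannot be told apart. TNFRSF10D, a membrane decoy, stood at 7.44, 7.52 and 7.54 in the parental arrays and at 7.21, 6.95 and 7.01 in the TTR arrays (−0.44 ± 0.11, adjusted p = 0.016). TNFRSF11B, the soluble receptor osteoprotegerin, stood at 6.09, 6.21 and 6.64 in the parental arrays and at 5.85, 5.73 and 5.95 in the TTR arrays (−0.47 ± 0.13, adjusted p = 0.0419). Those 2 falls were small and fragile: the call was lost for TNFRSF10D without parental array 2 or 3 or TTR array 2 or 3 (adjusted p 0.0568 to 0.0854) and for TNFRSF11B without parental array 2 or 3 or TTR array 1, 2 or 3 (adjusted p 0.0557 to 0.193). The TNFRSF11B call was also lost with further quantile normalization and with only the 6 untreated arrays in the fit.

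Inside the cell, CFLAR, the caspase inhibitor, stood at 5.48, 5.66 and 5.62 in the parental arrays and at 5.87, 5.85 and 5.81 in the TTR arrays. The 3 TTR values lay above the 3 parental values, but the difference did not pass (0.26 ± 0.09, limma adjusted p = 0.0853). CASP8, the initiator caspase, stood at 6.99, 7.13 and 7.05 in the parental arrays and at 6.82, 6.69 and 6.78 in the TTR arrays. It was also without overlap and also short of the threshold (−0.30 ± 0.10, limma adjusted p = 0.106). Such a separation was seen in 24.6% of all genes, called or not, so by itself it says little about CFLAR or CASP8. The adaptor FADD differed by 0.05 ± 0.12, the adaptor TRADD by 0.26 ± 0.15, the second initiator CASP10 by −0.23 ± 0.17, the receptor FAS by 0.07 ± 0.10 and the ligand gene TNFSF10 by 0.09 ± 0.19, with adjusted p from 0.393 (TRADD) to 0.908 (FADD). CASP10 averaged 3.52 in parental and 3.29 in TTR cells, and FAS 3.77 and 3.85, low levels with no detection call. In all, 4 (36.4%) of the 11 measured members of this list were lower, 0 higher and 7 did not pass. Over all genes 3.47% were lower and 3.64% higher. TNFRSF10C, RIPK1 and TRAF2 have no feature of their own and were not analysed here. Both death receptor genes and TNFRSF10D lie close together on chromosome 8, in a stretch where most other genes with a mean level of at least 6 were also lower.

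Downstream of the receptors single genes were called, where 3.64% of all genes were higher and 3.47% lower. Of 16 BCL2 family genes 1 was higher, BOK (0.36 ± 0.09), a pore-forming relative of BAX, and 0 were lower. Of 9 IAP proteins and antagonists 1 was higher: BIRC2, a ubiquitin ligase of the receptor complex, stood at 8.17, 8.17 and 8.17 in the parental arrays and at 8.74, 8.91 and 8.59 in the TTR arrays (0.58 ± 0.11, limma adjusted p = 0.00398). Of 11 other caspases and apoptosome genes 1 was higher: APAF1, which forms the apoptosome, stood at 5.27, 5.52 and 5.31 in the parental arrays and at 6.15, 5.91 and 5.97 in the TTR arrays (0.65 ± 0.11, adjusted p = 0.00216). Neither BIRC2 nor APAF1 overlapped between the lines, like nearly all called genes. The BOK call was lost without parental array 1 or 3 or TTR array 1, 2 or 3 (adjusted p 0.0618 to 0.116). The list medians lay between −0.05 and 0.03, close to the −0.013 over all genes. The 1 gene higher was 6.25% of the BCL2 family, 11.1% of the IAP list and 9.09% of the caspase list.

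SLC26A2 itself stood at 6.15, 6.66 and 6.14 in the parental arrays and at 6.72, 6.64 and 6.72 in the TTR arrays. Parental array 2 lay inside the TTR range, and the difference did not pass (0.38 ± 0.16, limma adjusted p = 0.189, range over the alternatives 0.0514 to 0.475). Among the 14 measured SLC26 transporters and genes of sulfate activation 2 (14.3%) were higher and 0 lower, against 3.64% and 3.47% of all genes. PAPSS2, which makes the sulfate donor, stood at 7.82, 7.89 and 7.55 in the parental arrays and at 8.75, 8.48 and 8.31 in the TTR arrays (0.76 ± 0.17, adjusted p = 0.0129), and SLC26A6, an anion exchanger, stood at 5.61, 5.62 and 5.64 in the parental arrays and at 6.05, 5.93 and 6.09 in the TTR arrays (0.40 ± 0.09, adjusted p = 0.0099). Neither overlapped, though the PAPSS2 call was lost without parental array 3 or TTR array 1 (adjusted p 0.0509 to 0.0653). Of 39 genes of heparan and chondroitin sulfate synthesis 0 were higher (1 without parental array 1) and 3 (7.69%) lower, among them HS6ST1, a heparan sulfotransferase (−0.63 ± 0.11), and EXTL2 (−0.64 ± 0.16), a glycosyltransferase of the chain. The list's median was 0.04. The EXTL2 call was lost without parental array 2 or 3 or TTR array 2 or 3 (adjusted p 0.0557 to 0.0757), that of the third gene, CHPF (−0.37 ± 0.11), whichever of the 6 arrays was left out (adjusted p 0.058 to 0.197).

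Mucin-type O-glycosylation and proteoglycan genes moved singly. GALNT5, which starts O-glycan chains, stood at 4.77, 5.10 and 4.82 in the parental arrays and at 6.41, 5.88 and 5.91 in the TTR arrays (1.17 ± 0.14, limma adjusted p = 9.42e-05). C1GALT1, which extends them, rose by 0.70 ± 0.15, with the call lost without TTR array 2 (adjusted p 0.0533), and GALNT3, another starting enzyme, was lower by 0.44, a call lost without parental array 1, 2 or 3 or TTR array 2 or 3 (adjusted p 0.0828 to 0.138). These were 2 higher (8%) and 1 lower (4%) of 25 measured, against 3.64% and 3.47% of all genes. Of 18 proteoglycan core proteins 2 (11.1%) were higher and 1 (5.56%) lower. SRGN, the serglycin core protein, stood at 10.44, 10.13 and 10.40 in the parental arrays and at 11.34, 11.52 and 11.42 in the TTR arrays (1.10 ± 0.13, adjusted p = 6.55e-05). TGFBR3, or betaglycan, stood at 5.75, 5.32 and 5.59 in the parental arrays and at 4.58, 4.56 and 4.74 in the TTR arrays (−0.92 ± 0.13, adjusted p = 0.00026). SRGN rose and TGFBR3 fell in all 3 arrays. The second rise, SDC1 (0.38 ± 0.10), was lost without parental array 1 or 2 or TTR array 1, 2 or 3 (adjusted p 0.0772 to 0.157).

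Among genes of the extracellular matrix, the rises were a larger share than over all genes. Of 44 matrix proteins 9 were higher and 2 lower (20.5% and 4.55% against 3.64% and 3.47% of all genes), although the list's median was 0.015, so most members stayed near 0. COL8A1 led the list. EFEMP1, a fibulin, stood at 6.69, 6.69 and 6.54 in the parental arrays and at 8.07, 7.68 and 7.63 in the TTR arrays (1.16 ± 0.17, limma adjusted p = 0.000377). THBS1, thrombospondin, stood at 9.84, 10.21 and 10.14 in the parental arrays and at 11.329, 11.008 and 10.996 in the TTR arrays (1.05 ± 0.12, adjusted p = 4.7e-05). COL6A1, a collagen VI chain, went the other way and stood at 6.59, 7.04 and 6.62 in the parental arrays and at 5.83, 5.66 and 5.65 in the TTR arrays (−1.03 ± 0.13, adjusted p = 0.000152). MFGE8, which bridges apoptotic cells to phagocytes, rose by 0.85 ± 0.09. FBN1, TNC, COL12A1, MATN3 and LAMB2 were the other rises and LAMA5 the other fall. EFEMP1, THBS1 and COL6A1 had no overlapping groups, like nearly all called genes. Without parental array 1 the number of matrix proteins called higher was 5, and without parental array 2 or TTR array 2 or 3 there was 1 lower.

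Of 49 matrix proteases and their inhibitors 9 (18.4%) were higher and 4 (8.16%) lower, against 3.64% and 3.47% of all genes (median 0.0085). Behind ADAMTS1 came MMP1, interstitial collagenase, which stood at 4.01, 4.19 and 4.55 in the parental arrays and at 5.77, 5.73 and 5.85 in the TTR arrays (1.54 ± 0.12, limma adjusted p = 1.06e-06). ADAMTS6, a relative of ADAMTS1, rose by 1.03 ± 0.15. TFPI, an inhibitor of the coagulation protease cascade, rose by 0.72 ± 0.11. The plasminogen activators PLAT and PLAU were also among the 9. TIMP4, a metalloprotease inhibitor, stood at 6.28, 6.58 and 6.60 in the parental arrays and at 5.12, 5.40 and 5.72 in the TTR arrays (−1.08 ± 0.15, adjusted p = 0.000305). The other falls were SERPINB5 and SERPINA1, of the serine protease inhibitor family, and ADAM8, a surface protease. TFPI was the only inhibitor among the rises. The lower count was 2 without parental array 1, TTR array 2 or TTR array 3.

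Adhesion molecules changed mostly upward where they changed. Of 45 cadherins, protocadherins and other adhesion molecules 8 (17.8%) were higher and 1 (2.22%) lower, with a median of −0.023. Over all genes 3.64% were higher and 3.47% lower. CDH18 and CADM1 had the largest rises. L1CAM, a neural adhesion molecule, stood at 4.99, 5.08 and 4.81 in the parental arrays and at 6.35, 5.75 and 5.56 in the TTR arrays (0.93 ± 0.18, limma adjusted p = 0.00425), and FAT4, a giant cadherin, stood at 5.91, 6.37 and 6.37 in the parental arrays and at 7.11, 6.98 and 6.87 in the TTR arrays (0.77 ± 0.14, adjusted p = 0.00335). Both were higher in all 3 TTR arrays. ALCAM, CDH12, NECTIN3 and CNTN1 were the other rises. PECAM1 was the single fall (−0.87 ± 0.16), but a second feature of that gene gave −0.0081. Among 24 integrins, ITGB8 was the only rise and ITGB4, the partner of the laminin-binding alpha subunit, the only fall (−0.66 ± 0.16). Each was 4.17% of the list, near the share over all genes. The ITGB4 call was lost without parental array 2 or TTR array 3 (adjusted p 0.0813 to 0.0923), and without TTR array 1 there were 3 lower integrins.

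Mesenchymal genes were split and epithelial genes were nearly all uncalled. Of 29 mesenchymal genes 4 (13.8%) were higher and 4 (13.8%) lower, against 3.64% and 3.47% of all genes (median 0.031). SNAI2, a repressor of epithelial genes, stood at 8.35, 8.22 and 8.45 in the parental arrays and at 9.45, 9.27 and 9.72 in the TTR arrays (1.14 ± 0.11, limma adjusted p = 1.39e-05). LOX, which crosslinks collagen, stood at 6.81, 6.80 and 6.55 in the parental arrays and at 7.63, 7.53 and 7.62 in the TTR arrays (0.87 ± 0.10, adjusted p = 7.95e-05). TPM1 also rose (0.67 ± 0.11). Against them CDH11 had the largest fall, and PRRX1, a homeobox factor, stood at 5.20, 5.09 and 5.15 in the parental arrays and at 4.51, 4.58 and 4.46 in the TTR arrays (−0.63 ± 0.12, adjusted p = 0.00479). SPARC and LOXL2 were the other lower genes and TAGLN the other higher one. Of 36 epithelial genes 1 was higher, MUC1 (0.50 ± 0.10), and 1 lower, EPCAM (−0.48 ± 0.11), both at levels under 5. Each was 2.78% of the list. The EPCAM call was lost without parental array 1 or TTR array 2 (adjusted p 0.094 to 0.0946). Without TTR array 1 the epithelial counts were 3 and 2, without parental array 3 they were 2 and 1, and without TTR array 3 1 and 2.

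**Figure D3:**
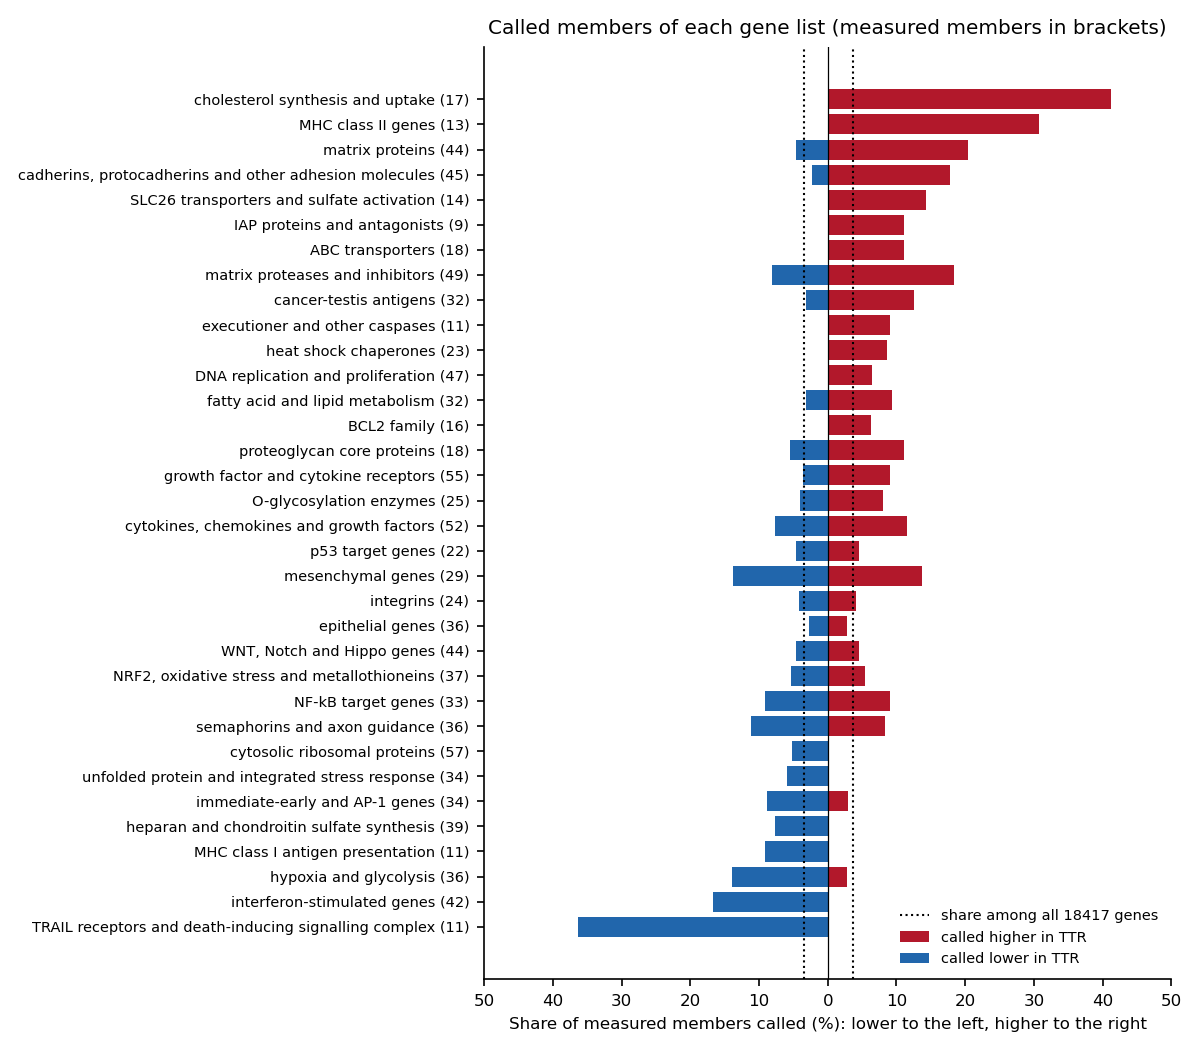
Share of the measured members of each gene list that was called lower (blue, to the left) or higher (red, to the right) in untreated TTR cells, in percent, with the number of measured members in brackets; dotted lines mark the 3.64% and 3.47% found over all 18417 genes. Cholesterol genes (7 of 17) have the longest bar to the right and the TRAIL receptor complex (4 of 11) the longest to the left.

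Cholesterol synthesis was the list with the highest share of rises. Of 17 measured genes 7 (41.2%) were higher and 0 lower, against 3.64% and 3.47% of all genes. Above 0 lay 16 of the 17, and the median was 0.40 against −0.013 over all genes. MSMO1, a sterol methyl oxidase, stood at 9.63, 9.40 and 9.56 in the parental arrays and at 10.10, 10.13 and 10.20 in the TTR arrays (0.61 ± 0.17, limma adjusted p = 0.0422). NSDHL, the next enzyme of the pathway, stood at 8.67, 8.62 and 8.81 in the parental arrays and at 9.08, 9.24 and 9.23 in the TTR arrays (0.49 ± 0.10, adjusted p = 0.00597). HMGCS1, which makes the precursor of mevalonate, stood at 7.28, 7.07 and 7.11 in the parental arrays and at 7.60, 7.69 and 7.70 in the TTR arrays (0.51 ± 0.12, adjusted p = 0.0181). No parental array of the 3 genes reached the lowest TTR array, as in nearly all called genes. SC5D (0.47 ± 0.12) and SQLE, both enzymes of the pathway, STARD4 (0.42 ± 0.12), a sterol carrier, and INSIG1, which restrains the pathway, completed the 7. The rises were small, and the calls depended on single arrays. Without parental array 1, 2 or 3 there were 4, 2 and 4 of them, and without TTR array 2 or 3 there were 2 and 3. NSDHL kept its call in all 16 alternatives, while MSMO1 lost it without parental array 1, 2 or 3 or TTR array 1, 2 or 3 (adjusted p 0.0674 to 0.153), HMGCS1 without parental array 2 or 3 or TTR array 2 or 3 (adjusted p 0.0584 to 0.0807), SC5D without parental array 1 or 2 or TTR array 2 or 3 (adjusted p 0.0663 to 0.0878) and STARD4 without parental array 1, 2 or 3 or TTR array 2 or 3 (adjusted p 0.0824 to 0.179).

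Promoters of sterol genes are known for boxes that bind the factor NF-Y next to sterol regulatory elements. Pieces of 3 promoters are shown because the genes rose together, with CCAAT boxes on either strand (CCAAT or ATTGG) and the E-box CACGTG in capitals. They come from RefSeq (GRCh38.p14), are written 5′ to 3′ on the strand of the gene, and run from −240 to −76, −200 to −26 and −140 to −41 relative to its start. NSDHL is at chrX:152830823-152830987, plus strand, MSMO1 at chr4:165327469-165327643, plus strand, and SC5D at chr11:121292631-121292730, plus strand.
NSDHL: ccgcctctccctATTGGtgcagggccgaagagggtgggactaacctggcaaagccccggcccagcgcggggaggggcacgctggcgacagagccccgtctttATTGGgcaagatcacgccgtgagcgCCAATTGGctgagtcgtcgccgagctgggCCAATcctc
MSMO1: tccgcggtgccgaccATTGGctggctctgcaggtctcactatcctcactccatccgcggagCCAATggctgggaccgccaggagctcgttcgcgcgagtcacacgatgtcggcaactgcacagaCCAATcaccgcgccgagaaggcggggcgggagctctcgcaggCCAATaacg
SC5D: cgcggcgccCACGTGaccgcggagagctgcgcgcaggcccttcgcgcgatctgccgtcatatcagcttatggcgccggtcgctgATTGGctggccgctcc
In NSDHL 5 matches start at −228, −138, −113, −110 and −84 from the start of the gene, and the pair at −113 and −110 overlap. In MSMO1 they start at −185, −139, −76 and −34. SC5D has 1 at −56 and the E-box at −131. Of the 7 rising genes 6 have a promoter in the table, and all 6 hold a CCAAT box within 250 bases of the start, against 13 of the 16 measured members found there and 33.0% of all 27305 promoters. The E-box was in SC5D and INSIG1 and in 6.49% of all promoters. A sterol regulatory element, TCACNCCAC on either strand, was in none of the 6 within this window and in 0.875% of all. These matches describe the letters only.

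Interferon-stimulated genes lay on the other side. Of 42 measured 7 (16.7%) were lower and 0 higher by limma, against 3.47% and 3.64% of all genes. Below 0 lay 30 of the 42, and the median was −0.15. IFI44 stood at 6.83, 6.90 and 7.06 in the parental arrays and at 5.97, 5.88 and 6.01 in the TTR arrays (−0.98 ± 0.12, adjusted p = 0.000106). OAS2, which makes the activator of RNase L, stood at 6.58, 6.27 and 6.44 in the parental arrays and at 5.60, 5.39 and 5.52 in the TTR arrays (−0.93 ± 0.10, adjusted p = 3.54e-05). DDX60, a helicase of RNA sensing, stood at 6.14, 6.27 and 6.14 in the parental arrays and at 5.44, 5.35 and 5.45 in the TTR arrays (−0.77 ± 0.10, adjusted p = 0.000168). In none of the 3 genes did a TTR array reach the lowest parental array, as in nearly all called falls. USP18, which removes the modifier ISG15, fell by 0.70, and OASL by 0.80, the last with a call lost without parental array 1 or 3 or TTR array 1 or 2 (adjusted p 0.0892 to 0.135). OAS1 and SAMD9 were the remaining falls. The count was 4 without parental array 3 or TTR array 2, and 1 gene was higher without TTR array 1.

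The promoters of 3 of these genes hold the core of the interferon-stimulated response element, which is GAAA, 2 bases of any kind and GAAA again, on either strand, shown in capitals in the same layout and cut to 70 bases. DDX60 is at chr4:168318783-168318852, minus strand, SAMD9 at chr7:93118070-93118139, minus strand, and IFI44 at chr1:78649719-78649788, plus strand.
DDX60: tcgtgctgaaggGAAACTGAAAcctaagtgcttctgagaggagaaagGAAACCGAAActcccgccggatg
SAMD9: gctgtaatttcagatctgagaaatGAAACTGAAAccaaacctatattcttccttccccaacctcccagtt
IFI44: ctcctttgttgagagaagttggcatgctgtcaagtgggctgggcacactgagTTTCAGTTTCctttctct
DDX60 has matches at −88 and −53, SAMD9 at −136 and IFI44 at −18. The promoter of OAS1 held no match within 250 bases, and OAS2, OASL and USP18 did not match the table. Over the 33 measured interferon-stimulated genes with a listed promoter, 20 (60.6%) held the core, called or not, against 3.07% of all 27305 promoters.

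MHC class II genes were next by share of rises. Of 13 measured 4 (30.8%) were higher and 0 lower, against 3.64% and 3.47% of all genes, with a median of 0.21. HLA-DMA, part of the peptide exchanger, stood at 5.86, 6.03 and 6.22 in the parental arrays and at 6.73, 7.06 and 7.32 in the TTR arrays (1.00 ± 0.16, limma adjusted p = 0.000844). Its other features gave 0.999 and 0.994. The first has the same mean level as the feature used, 6.109, so they may not be separate measurements. HLA-DPA1 stood at 3.73, 3.48 and 3.21 in the parental arrays and at 4.36, 4.40 and 4.11 in the TTR arrays (0.82 ± 0.15, adjusted p = 0.00239), and its partner HLA-DPB1 stood at 3.47, 3.38 and 3.57 in the parental arrays and at 4.01, 4.25 and 4.17 in the TTR arrays (0.67 ± 0.10, adjusted p = 0.000559). All 3 genes were higher in every TTR array, but the DP chains stayed under 4.5, and the files give no detection call. HLA-DMB, the partner of HLA-DMA, differed by 0.48 ± 0.14, a call lost without parental array 1, 2 or 3 or TTR array 2 or 3 (adjusted p 0.0515 to 0.228). The master regulator CIITA was at 0.21, RFX5 at −0.02, RFXANK at 0.31 and RFXAP at −0.13, and the chains HLA-DRB5, HLA-DQB1, HLA-DQA1, HLA-DOA and HLA-DOB at 0.24, 0.16, −0.05, −0.03 and −0.20, none of which passed. HLA genes are highly alike, so probes can be shared between them. Of 11 genes of MHC class I presentation 0 were higher and 1 (9.09%) lower, TAP2, a count of 0 without parental array 1 or 2 or TTR array 2 or 3, and 1 was higher without TTR array 1.

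NF-kB target and immediate-early genes, which TRAIL can switch on, were split at baseline. Of 33 NF-kB targets 3 (9.09%) were higher and 3 (9.09%) lower, against 3.64% and 3.47% of all genes. IL6, an inflammatory cytokine, stood at 4.90, 5.48 and 5.40 in the parental arrays and at 6.15, 6.20 and 6.24 in the TTR arrays (0.94 ± 0.13, limma adjusted p = 0.00038). PTGS2, the inducible cyclooxygenase, stood at 5.18, 5.51 and 5.43 in the parental arrays and at 6.20, 6.00 and 6.72 in the TTR arrays (0.93 ± 0.16, adjusted p = 0.00176). TRAF1, a signalling adaptor, stood at 4.47, 4.23 and 4.50 in the parental arrays and at 3.86, 3.77 and 3.88 in the TTR arrays (−0.56 ± 0.11, adjusted p = 0.00561). The groups did not overlap in any of the 3, as in nearly all called genes. CYLD was the third rise, and the NF-kB subunits RELB (−0.52 ± 0.14) and NFKB2 (−0.42 ± 0.12) were the other falls, with calls lost for RELB without parental array 1, 2 or 3 or TTR array 2 or 3 (adjusted p 0.0548 to 0.108) and for NFKB2 without parental array 2 or 3 or TTR array 1 or 2 (adjusted p 0.0689 to 0.188). Of 34 immediate-early genes 1 (2.94%) was higher and 3 (8.82%) lower. MYC stood at 7.93, 8.20 and 8.16 in the parental arrays and at 9.06, 8.89 and 8.72 in the TTR arrays (0.80 ± 0.10, adjusted p = 0.000168), and EGR1 stood at 6.46, 6.69 and 6.32 in the parental arrays and at 5.82, 5.90 and 5.92 in the TTR arrays (−0.61 ± 0.12, adjusted p = 0.00391). MYC was higher and EGR1 lower in all 3 TTR arrays. KLF4 (−0.53 ± 0.15) and JUNB (−0.43 ± 0.10) were the other falls. In KLF4 the groups overlapped, with TTR array 1 at 6.57 above parental array 3 at 6.48. The KLF4 call was lost without parental array 1 or 2 or TTR array 2 or 3 (adjusted p 0.128 to 0.195) and the JUNB call without parental array 1 or TTR array 2 (adjusted p 0.0535 to 0.0875).

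Among secreted signals, 6 (11.5%) of 52 cytokines, chemokines and growth factors were higher and 4 (7.69%) lower, against 3.64% and 3.47% of all genes. Besides IL6 the rises were BMP4 (0.80 ± 0.18), the cytokine IL24 (0.77 ± 0.17), FGF5 (0.75 ± 0.13), BMP2 and EGF, and INHBB, an activin subunit (−0.52 ± 0.10), led the falls of NRG1, TGFB3 and PDGFA. IL24 averaged 3.09 in parental and 3.86 in TTR cells, low levels with no detection call. Without parental array 1 the counts were 3 and 2, and BMP4 lost its call without parental array 1 or TTR array 3 (adjusted p 0.0517 to 0.0558). Without parental array 2 the lower count was also 2. Of 55 receptors 5 (9.09%) were higher and 2 (3.64%) lower, and 3 were higher without parental array 2 or 3 or TTR array 1 or 2. The lower count was 1 without any 1 array other than TTR array 3. IL13RA2, a decoy receptor of interleukin 13, stood at 5.01, 4.99 and 4.72 in the parental arrays and at 6.15, 6.56 and 6.04 in the TTR arrays (1.34 ± 0.16, limma adjusted p = 9.47e-05). EPHA4, an ephrin receptor, stood at 4.91, 4.86 and 4.92 in the parental arrays and at 6.11, 5.69 and 5.88 in the TTR arrays (1.00 ± 0.11, adjusted p = 5.58e-05). IL7R, the interleukin 7 receptor chain, stood at 6.91, 6.87 and 7.46 in the parental arrays and at 6.17, 6.42 and 6.27 in the TTR arrays (−0.79 ± 0.15, adjusted p = 0.00335). The 2 rises and the fall were each seen in all 3 arrays. LIFR (0.66 ± 0.15) and KDR (0.51 ± 0.13) were also higher, with calls lost for LIFR without parental array 2 or TTR array 3 (adjusted p 0.0523 to 0.0577) and for KDR without parental array 2 or 3 or TTR array 1 or 2 (adjusted p 0.058 to 0.096). KDR averaged 3.30 in parental and 3.81 in TTR cells, which can be background.

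Glycolysis and hypoxia genes had 5 falls (13.9%) and 1 rise (2.78%) among 36 measured, against 3.47% and 3.64% of all genes (median −0.028). ALDOC stood apart from the others by its size. ANKRD37, a hypoxia target, was lower by 0.68, PDK1, which blocks entry of pyruvate into mitochondria, by 0.48, and PFKFB3, which stimulates glycolysis, by 0.36, while the glucose transporter SLC2A1 was higher by 0.32 ± 0.09. ALDOC was the only fall left without TTR array 2, and the other calls were lost for ANKRD37 without parental array 1 or 3 or TTR array 2 (adjusted p 0.0501 to 0.0637), for PDK1 without parental array 2 or 3 or TTR array 1 or 2 (adjusted p 0.0662 to 0.0702), for PFKFB3 without parental array 1 or 2 or TTR array 2 or 3 (adjusted p 0.105 to 0.175) and for SLC2A1 whichever of the 6 arrays was left out (limma adjusted p 0.0881 to 0.159). Of 32 cancer-testis antigens 4 (12.5%) were higher and 1 (3.12%), MAGEB2, lower. PAGE5 (0.75 ± 0.15), MAGEC2 (0.69 ± 0.15), SSX1 (0.63 ± 0.16) and SPANXB1 (0.35 ± 0.10) rose, all from multigene families. MAGEC2 averaged 3.27 in parental and 3.97 in TTR cells, low levels with no detection call. Without parental array 1 or 3 there were 2 rises. The SSX1 call was lost without parental array 1 or 3 or TTR array 2 (adjusted p 0.0577 to 0.12) and that of SPANXB1 without parental array 1, 2 or 3 or TTR array 1 or 2 (adjusted p 0.0813 to 0.209).

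Other lists are given as counts, against 3.64% higher and 3.47% lower over all genes. Of 47 DNA replication genes 3 (6.38%) were higher and 0 lower, of 23 heat shock chaperones 2 (8.7%) and 0. Of 18 ABC transporters 2 (11.1%) and 0 were called, and of 32 fatty acid genes 3 (9.38%) and 1 (3.12%). The 37 genes of oxidative stress had 2 and 2 (5.41% each) and the 44 WNT, Notch and Hippo genes 2 and 2 (4.55% each). The 36 semaphorin and axon guidance genes had 3 (8.33%) and 4 (11.1%), and the 22 p53 targets 1 and 1 (4.55% each). Of 34 genes of the unfolded protein response 0 were higher and 2 (5.88%) lower, and of 57 ribosomal protein genes 0 and 3 (5.26%). The ribosomal genes had 55 of 57 members below 0 with a median of −0.11, against −0.013 over all genes. Most of these small counts moved when an array was left out. Replication genes went to 1 without parental array 2 or 3 or TTR array 2, ribosomal and heat shock genes to 1 without any array other than TTR array 1, and ABC transporters to 0 without parental array 1 or 3 and to 1 without any other. The unfolded protein response went to 1 without parental array 2 or 3 or TTR array 2, and the lower axon guidance genes to 2 without parental array 2. The same array took the higher WNT, Notch and Hippo genes to 1 and the lower fatty acid genes to 0. Higher oxidative stress genes numbered 1 without parental array 2 or TTR array 2 or 3, and higher p53 targets 2 without parental array 2 and 3 without TTR array 1.

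Neighbouring genes were also compared. When the tested genes were taken in windows of 25 neighbours, window medians ran from −0.30 to 0.29, with the percentiles 1 and 99 at −0.14 and 0.14. Over all genes 3.64% were called higher and 3.47% lower. The lowest window lay on chromosome 8, from REEP4 to LOXL2, with a median of −0.30 and 11 of 25 genes lower. It holds TNFRSF10A, TNFRSF10B and TNFRSF10D. The highest lay on chromosome 7, from RNF216 to TMEM106B, with a median of 0.29 and 9 of 25 genes higher. The next window on chromosome 8, from LONRF1 to INTS10, had a median of −0.29 and 7 lower, and the next on chromosome 7, from SP4 to SPMIP4, had 0.275 and 10 higher. The remaining extremes were on chromosome 20 (STAU1 to ZFP64, −0.22, with 3 lower, PARD6B among them) and chromosome 14 (JKAMP to SGPP1, 0.24, with 4 higher).

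The shift was clearer among the 7040 genes with a mean level of at least 6, of which 5.50% were higher and 6.04% lower. From the first gene of chromosome 8 to SLC25A37 there were 28 such genes, 26 of them below 0, and 18 (64.3%) were called lower and 0 higher. Their median was −0.54, and in the single TTR arrays it was −0.52, −0.53 and −0.56 relative to the parental mean. The remaining 204 genes of the chromosome had a median of 0.028, with 18 higher and 12 lower. POLR3D, an RNA polymerase subunit, stood at 7.34, 7.25 and 7.19 in the parental arrays and at 6.21, 6.10 and 5.88 in the TTR arrays (−1.20 ± 0.10, limma adjusted p = 2.8e-06). CCAR2, a regulator of the cell cycle and apoptosis, stood at 7.45, 7.08 and 7.29 in the parental arrays and at 6.18, 6.20 and 6.47 in the TTR arrays (−0.99 ± 0.13, adjusted p = 0.000173). AGPAT5, an acyltransferase of lipid synthesis, stood at 7.72, 7.72 and 7.56 in the parental arrays and at 6.89, 6.81 and 6.96 in the TTR arrays (−0.78 ± 0.09, adjusted p = 5.9e-05). The 3 genes showed the same separation of the lines as the death receptors and nearly all called genes. Among the 28 genes TNFRSF10B (−1.05) had the second largest fall, after POLR3D, and TNFRSF10A (−1.47), whose mean level is under 6, fell by more than any of the 28. SH2D4A (−0.77 ± 0.12), LONRF1 (−0.91 ± 0.18) and SLC7A2 (−0.64 ± 0.16) lie on the same chromosome. The SLC7A2 call was lost without parental array 1 or 3 or TTR array 2 or 3 (adjusted p 0.0661 to 0.0883). CTSB and MIR320A were the 2 genes above 0.

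On chromosome 7 the stretch from the first gene to STARD3NL held 78 genes with a mean level of at least 6. Of these 71 lay above 0, 28 (35.9%) were called higher and 1, PDGFA, lower. The median was 0.31, and 0.31, 0.32 and 0.34 in the single TTR arrays, against −0.078 over the other 258 genes. Of those 258 genes 7 (2.71%) were called higher and 23 (8.91%) lower. OSBPL3, an oxysterol-binding protein, stood at 7.12, 7.17 and 7.16 in the parental arrays and at 8.14, 8.21 and 8.10 in the TTR arrays (1.00 ± 0.09, limma adjusted p = 7.28e-06). HYCC1 stood at 6.86, 6.84 and 6.96 in the parental arrays and at 7.75, 7.72 and 7.92 in the TTR arrays (0.91 ± 0.15, adjusted p = 0.00102). TMEM106B, a lysosomal membrane protein, rose by 0.83 ± 0.18, with the call lost without parental array 1 (adjusted p 0.0502), and COXFA4 by 0.78 ± 0.13. KLHL7, a ubiquitin ligase adaptor with a mean level under 6, stood at 5.72, 5.56 and 5.61 in the parental arrays and at 6.70, 6.90 and 6.75 in the TTR arrays (1.15 ± 0.09). All 3 arrays of each gene moved together. IL6 and C1GALT1 also lie in the stretch. The ends of both stretches were read off the data, so their counts are a description.

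**Figure D4:**
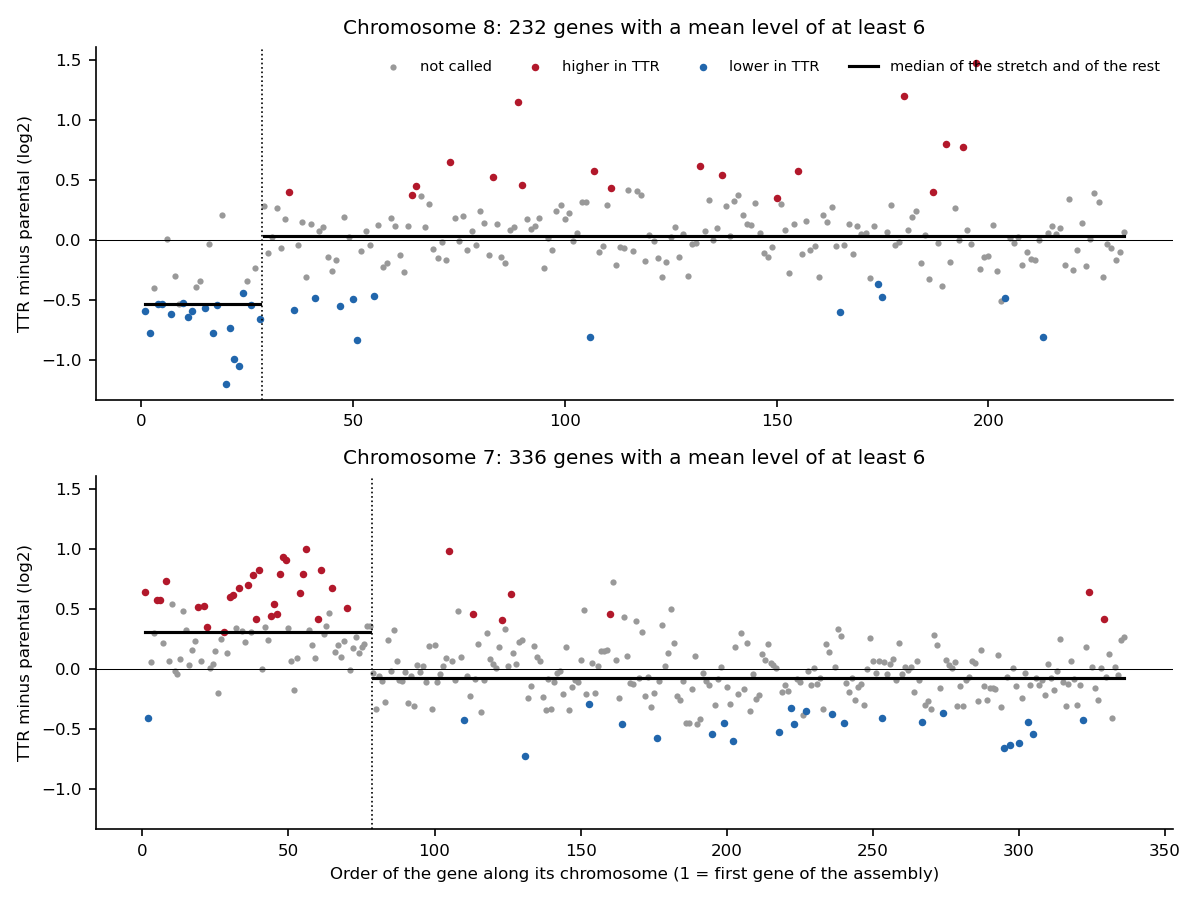
Log2 difference, TTR minus parental cells without TRAIL, for genes with a mean level of at least 6 in their order along chromosome 8 (top) and chromosome 7 (bottom); red and blue points are called genes, the dotted line ends the stretch described and black lines are medians. The first 28 genes of chromosome 8 centre on −0.54 and the first 78 of chromosome 7 on 0.31. The rest of chromosome 8 has a median of 0.028 and the rest of chromosome 7 of −0.078.

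The same comparison in the 6 arrays with TRAIL, which share no array with the untreated ones, shows which baseline differences were found again. With TRAIL, far more genes differed between the lines: 28.0% were higher and 26.4% lower in TTR cells. Of the 671 genes higher at baseline, 577 (86.0%) were higher again and 21 (3.13%) lower. Of the 639 lower at baseline, 279 (43.7%) were lower again and 130 (20.3%) higher. With TRAIL the line difference also shifted upward in other genes with a mean level of at least 6. On chromosome 8 outside the stretch described, their median was 0.58 with TRAIL and 0.028 without. On chromosome 7 outside its stretch it was 0.42 and −0.078. Over all genes the medians were −0.066 and −0.013. Whether this shift accounts for the unequal shares was not tested. The large differences were found again more often: 63 of 67 genes at least 2-fold higher were higher with TRAIL and 0 lower, and 31 of 42 at least 2-fold lower were lower and 3 higher. The test of the difference between the line differences passed for 333 of the 671 and 342 of the 639 genes. Over all genes it passed for 37.2%, which is no measure for these. They were picked on the baseline difference, which enters the same contrast.

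With TRAIL, MAGEB2 was at −2.89, FOXR2 at −2.20, ALDOC at −2.51 and FKBP10 at −2.18 (TTR minus parental), and CDH18, NOG, NNMT and COL8A1 stood at 1.76, 1.61, 1.71 and 1.93. TNFRSF10A was at −1.01 and TNFRSF10B at −0.63, both still lower (limma adjusted p = 1.5e-06 and 0.000513). Other baseline differences were not seen with TRAIL. ADAMTS1, the largest rise without TRAIL, was at 0.02 with it, and the difference between the 2 was itself significant (adjusted p = 2.07e-06). LCP1 went from −2.29 to −0.30 (adjusted p of the difference 1.18e-06), HBE1 from −1.65 to 0.30 (3.79e-06) and SNAI2 from 1.14 to 0.12 (9.9e-05). In these genes the parental means differed more by TRAIL than the TTR means. Without and with TRAIL, ADAMTS1 stood at 4.22 and 7.37 in parental and at 6.42 and 7.39 in TTR cells. For LCP1 these were 10.07 and 7.50, and 7.78 and 7.20. For HBE1 they were 8.50 and 5.87, and 6.85 and 6.17, and for SNAI2 8.34 and 9.48, and 9.48 and 9.60. The median line difference of the cholesterol genes was larger with TRAIL, at 1.1, with 14 of 17 higher, where 28.0% of all genes were higher. MSMO1 stood without and with TRAIL at 9.53 and 6.88 in parental and at 10.14 and 9.64 in TTR cells. For SC5D these were 8.04 and 5.80, and 8.51 and 8.06, and for NSDHL 8.70 and 7.66, and 9.19 and 8.99. For STARD4 they were 7.63 and 7.44, and 8.05 and 7.97, and its line difference did not change by the limma test (0.10 ± 0.17, adjusted p = 0.679). HMGCS1 stood at 7.16 and 6.82 in parental cells but at 7.67 and 8.09 in TTR cells. The interferon-stimulated genes had a median of 0.055, with 11 higher and 9 lower. On chromosome 8 the stretch had a median of −0.03 against 0.58 over the rest of that chromosome, and on chromosome 7 the stretch had 0.84 against 0.42.

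**Figure D5:**
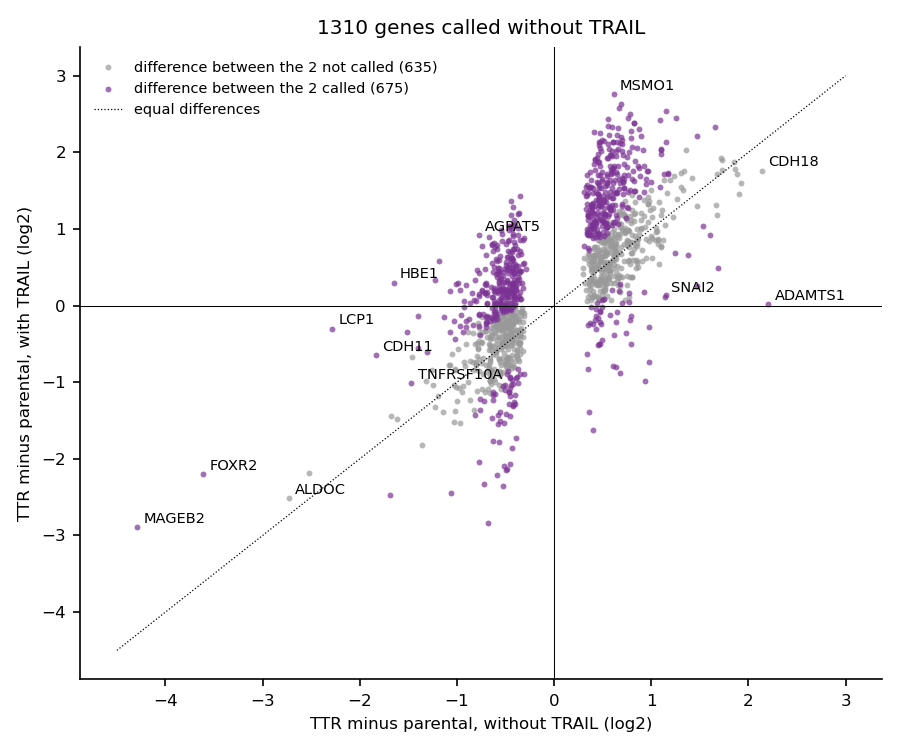
TTR minus parental log2 difference with TRAIL (vertical) against the same difference without TRAIL (horizontal) for the 1310 genes called without TRAIL; purple points are the 675 genes where the difference between the 2 was called, and the dotted line marks equal values. Genes higher at baseline mostly lie above 0 on both axes, while those lower at baseline spread over both sides of 0 on the vertical axis.

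A change of sign was called for 151 genes, 21 of them higher without and lower with TRAIL and 130 lower and then higher. Whether the upward shift with TRAIL given above accounts for this imbalance was not tested. SAT1, which acetylates polyamines, stood at 7.40, 7.30 and 7.13 in the parental arrays and at 7.54, 7.60 and 7.87 in the TTR arrays (0.40 ± 0.11, limma adjusted p = 0.0315), and was at −1.62 with TRAIL. EPM2AIP1 was at 0.36 ± 0.10 without and −1.39 with TRAIL. AGPAT5 was at −0.78 and 0.92, PLS1, an actin-bundling relative of LCP1, at −0.35 ± 0.10 and 1.43, and the kinase STK38L at −0.37 ± 0.10 and 1.19. Their baseline calls, other than that of AGPAT5, were lost for SAT1 without parental array 2 or 3 or TTR array 2 or 3 (adjusted p 0.0635 to 0.147), for EPM2AIP1 without parental array 1, 2 or 3 or TTR array 1 or 3 (adjusted p 0.0951 to 0.176), for STK38L without parental array 1 or 2 or TTR array 2 or 3 (adjusted p 0.0937 to 0.115) and for PLS1 whichever of the 6 arrays was left out (adjusted p 0.0555 to 0.166).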

How the data were processed

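Total RNA of 12 samples was hybridised to Affymetrix arrays. The authors deposited log2 expression values made by RMA with Affymetrix Power Tools, per the submitters' processing notes, with 33252 features. Versions and array background settings are not stated by the labels. RMA quantile-scales arrays, so a shift of all genes together is not measured. Of the features 19460 name 1 gene, 1754 several and 12038 none; features naming 1 gene were used (the one with the highest mean over the 12 arrays per gene), and 19429 matched RefSeq.

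All 12 arrays entered a single limma fit (limma 3.58.1, R 4.3.3; group means, 8 residual degrees of freedom, two-sided, Benjamini-Hochberg over 18417 genes, threshold 0.05). Contrasts were TTR minus parental without TRAIL, the same with TRAIL, and their difference. With 3 arrays a group the smallest exact permutation p is 0.1, so none was computed. The number of arrays limits precision: the median standard error was 0.11. Gene lists were described by counts and medians only. The gene members, lists and windows were chosen with earlier results of these data known. Genes named were the 15 largest rises and falls without overlap (38 small RNA, histone and unnamed-locus genes counted but not named), up to 5 called members of each list, all TRAIL complex and MHC class II genes, SLC26A2, 5 genes of opposite sign with TRAIL, and the 3 largest differences in extreme windows. Windows were 25 neighbouring genes in RefSeq order, and windows limited to a mean level of at least 6 were added after the data were seen. FBXO25, CYLD and other genes given without values are called members of a stretch or list.

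The same replicate numbers occur in each group, and same-numbered arrays share a code in their descriptions whose meaning is not given. Same-numbered untreated arrays of the 2 lines correlated at 0.095, −0.033 and 0.373 in their deviations from the group means. Arrays of different numbers correlated at −0.374 to 0.302. These values do not settle whether the numbers pair the arrays. The main fit has no replicate block, and fits with one are given among the alternatives. Promoters were read from RefSeq (GRCh38.p14). Figures were drawn with matplotlib 3.10.9.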

Additional observations from a re-analysis of the deposited data

Results flagged for a closer look

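For 74 of the 142 genes named by the rule, the difference between TTR and parental cells was not the same with and without TRAIL, by limma's test of the difference between the line differences (adjusted p under 0.05). Over all genes it passed for 37.2%, which is no measure for these 142: 5 were chosen for an opposite sign with TRAIL, and most others for their baseline difference, which enters the same contrast. Values here are the TTR minus parental log2 difference with TRAIL minus that without, and do not show which line changed. In 33 of the genes the lines lay nearer each other with TRAIL and in 41 farther apart.

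Baseline rises that were smaller with TRAIL included ADAMTS1 (−2.19), SNAI2 (−1.03), CCDC80 (−1.19), the cytokine IL24 (−0.72), FAT4 (−0.60), MMP1 (−0.50) and HLA-DPB1 (−0.48). For 5 more the sign turned while the size shrank: MYC (−1.30), SLC26A6 (−0.64), SPANXB1 (−0.60), MUC1 (−0.52) and SDC1 (−0.40).

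Baseline falls that were smaller with TRAIL were LCP1 (1.99), FOXR2 (1.41), MAGEB2 (1.40), ST6GAL1 (1.26), CDH11 (1.19), GSAP (1.17), the interferon-stimulated genes OAS2 (0.91), DDX60 (0.64) and USP18 (0.48), PARD6B (0.84), TIMP4 (0.73), PECAM1 (0.70) and the death receptor gene TNFRSF10A (0.46). The embryonic globin gene HBE1 (1.95), IL7R (1.26), EXTL2 (1.20), LONRF1 (1.18), TGFBR3 (0.99), PRRX1 (0.75), TNFRSF11B (0.68) and EPCAM (0.66) passed to the other side of 0 at a smaller size.

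Differences above 0 that were larger with TRAIL included the sterol genes MSMO1 (2.15), SC5D (1.79), NSDHL (0.84) and HMGCS1 (0.76). The sulfate genes PAPSS2 (1.70) and SLC26A2 (0.81), the latter not called at baseline, moved the same way. So did the glycan genes C1GALT1 (1.32), SRGN (0.87) and GALNT5 (0.55), and the death pathway genes BIRC2 (0.68), APAF1 (0.50) and CFLAR (0.49), of which CFLAR was not called at baseline. Genes of the chromosome 7 stretch were TMEM106B (1.56), HYCC1 (1.11), KLHL7 (0.98) and OSBPL3 (0.62). The others were LIFR (1.66), EFEMP1 (1.38), PCNX4 (1.14), TFPI (0.99), SLC2A1 (0.94), SSX1 (0.69), LIMCH1 (0.67) and LOX (0.54).

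Differences below 0 that were larger with TRAIL were those of ANKRD37 (−2.15), KLF4 (−1.83), JUNB (−1.43), HS6ST1 (−1.14), NFKB2 (−0.89), MOCS3 (−0.87), TENM1 (−0.78) and INHBB (−0.52). Turned in sign and larger were SAT1 (−2.02), PTGS2 (−1.92) and EPM2AIP1 (−1.75), which went from above to below 0, and PLS1 (1.78), AGPAT5 (1.70), STK38L (1.56), SLC7A2 (1.43), GALNT3 (1.05) and RFX5 (0.65), which went from below to above.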

How the results depend on the processing

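Of the 125 named genes called by limma, 82 kept their call and direction in all 16 alternatives, and IL24, HLA-DPA1 and MAGEC2 in the 15 that tested them, since the filter on low means leaves them out. The other 40 lost the call in at least 1, and no called gene changed sign in an alternative that tested it. EPCAM lost its call with the mean of all features, EPM2AIP1 with array weights, and KLF4 and HLA-DMB without the parental TRAIL arrays in the fit. Of the 17 not called, 4 passed in some: CFLAR and HLA-DRB5 with array weights, CASP8 with array weights and without the parental TRAIL arrays in the fit, and RFXANK with array weights and without TTR array 1. The number of called genes was 2386 with array weights (1182 higher, 1204 lower) and 109 at a difference of at least 2-fold (67 and 42). It ran from 782 to 1316 when single untreated arrays were left out (404 to 688 higher, 377 to 628 lower). It was 1283 after median centring (731 and 552, a higher share of 57.0% against 51.2%), 1172 after quantile normalization, 1218 from the 6 untreated arrays alone, 1377 without the genes of lowest mean level (12278 tested), 1322 with the mean of all features and 1268 with a trended variance prior. In a fit without the parental TRAIL arrays, chosen after seeing the data, it was 1654. With the replicate number as a block it was 1672 (861 higher, 811 lower, 1308 shared with the fit without the block) over 12 arrays and 1697 (880 and 817) over 6, and not every array correlated best with its own number. In the blocked fit of 6 arrays the calls of NFKB2, HLA-DMB, SLC2A1, SPANXB1, SAT1 and PLS1 were lost. Quantile normalization took the calls of TNFRSF11B, EXTL2, CHPF, GALNT3, SDC1, RELB, NFKB2, KLF4, OASL, MSMO1, STARD4, SLC7A2, PLS1 and EPM2AIP1. The unblocked fit of the 6 untreated arrays took those of TNFRSF11B, CHPF, NFKB2, KLF4, HLA-DMB, PFKFB3, SLC2A1, SPANXB1, SAT1, PLS1 and EPM2AIP1. Median centring took those of CHPF, KLF4, PFKFB3 and PLS1, and the trended prior those of CHPF, HLA-DMB and PLS1. The only signs that turned were of genes not called: TNFSF10 at −0.093 with array weights and from −0.085 (without TTR array 1) to 0.295 when single arrays were left out; RFX5 at 4.8e-04 with array weights, from −0.066 to 0.012 when single arrays were left out, above 0 without parental array 3 and without TTR array 1 (0.010); HLA-DQA1 from −0.115 to 0.017, above 0 without parental array 1 and without TTR array 3 (0.014); and HLA-DOA from −0.107 to 0.049, above 0 without parental array 2, TTR array 1 (0.027) and TTR array 2 (7.2e-04). The cause was not tested. The median of the chromosome 8 window from FBXO25 to R3HCC1 stayed between −0.57 and −0.51, and that of the chromosome 7 window from CYTH3 to PALS2 between 0.41 and 0.47. With 3 arrays a group and a median standard error of 0.11, the smallest called difference was 0.29, and with no detection call low values have no stated background.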

Other observations

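Other chromosomes showed smaller shifts of neighbouring genes. On chromosome 20 the window from STAU1 to ZFP64 held PARD6B (−1.40), DDX27, an RNA helicase (−0.83 ± 0.12), and MOCS3, which acts in molybdenum cofactor synthesis (−0.42 ± 0.11), the last with a call lost without parental array 1, 2 or 3 or TTR array 1 or 2 (adjusted p 0.0549 to 0.086). On chromosome 14 the window from JKAMP to SGPP1 held SLC38A6, an amino acid transporter (0.98 ± 0.14), PCNX4 (0.49 ± 0.11), lost without TTR array 2 (adjusted p 0.0587), and the small GTPase RHOJ (0.52 ± 0.13), lost without parental array 2 or 3 or TTR array 1 or 3 (adjusted p 0.0568 to 0.111). RHOJ averaged 3.43 in parental and 3.95 in TTR cells, low levels with no detection call. Among genes with a mean level of at least 6, the window from SSRP1 to SDHAF2 on chromosome 11 had a median of −0.232 with 6 of 25 lower by limma, and the window from UBP1 to TCAIM on chromosome 3 a median of 0.261 with 5 of 25 higher. Of all genes at such levels 5.50% were higher and 6.04% lower.

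Counted by whole chromosomes over the genes tested, against 3.64% higher and 3.47% lower among all genes, the share of genes called lower was 7.82% on chromosome 8 and 5.11% on chromosome 11, and the share called higher 6.60% on chromosome 7, 5.84% on chromosome 3 and 5.76% on the X chromosome. Chromosome 19 had 1.07% higher and 3.82% lower. On the X chromosome MAGEB2, FOXR2 and TENM1 fell, while IL13RA2, L1CAM, NSDHL and the 4 cancer-testis antigen genes MAGEC2, PAGE5, SSX1 and SPANXB1 rose.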
